A study of Mus musculus with 8 samples.

Results

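The genes described are 6 of the repressor genes of the mouse clock, Per1, Per2, Per3, Cry1, Cry2 and Ciart, seen through RNA polymerase II (Pol II) contacts in liver. They were taken by name, each as its GRCm38 span with 2.5 kb added on both sides, out of 21887 protein-coding genes on the 21 nuclear chromosomes. Their windows held 868 of 5502578 nuclear ends of paired-end tags (PETs). A PET is a pair of DNA ends that were ligated to each other in chromatin pulled down with an antibody (ChIA-PET). A pile of ends marks DNA that was recovered with Pol II, and a PET with distant ends marks a possible contact.

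All livers came from wild type C57BL/6 mice aged 3 to 6 months, taken in the middle of the light phase (ZT06) or of the dark phase (ZT18), and the chromatin of 3 to 7 livers was combined for each pull-down with the antibody 8WG16. Experiments 1 and 3 (labelled JM08 and JM12) were crosslinked with 1.5 mM EGS, which joins proteins, and 1% formaldehyde, and experiment 2 (JM11) with 1% formaldehyde alone. The labels name 8 libraries, 4 at each time point. The table analysed here pools the libraries of an experiment and names neither library nor time point, so no day against night value can be given for these genes. Each experiment is 1 pool without replicates, and intervals below are 95% intervals that cover counting error only. Experiment 1 pools 4 libraries, and experiments 2 and 3 pool 2 each. Crosslinker, number of libraries and depth differ together between the experiments, as mice and run may, and cannot be told apart.

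The nuclear PETs numbered 474466 in experiment 1, 1438852 in experiment 2 and 837971 in experiment 3, and gave 203, 338 and 327 ends in the 6 windows. Liver identity was checked on 6 hepatocyte markers, whose median density was 52.2, 7.77 and 12.2 times the nuclear mean in experiments 1, 2 and 3. The medians of 4 lists of 3 markers each for Kupffer cells, sinusoidal endothelium, stellate cells and bile duct lay between 0.803 and 1.77. In this bulk material, fewer cells of a type and less Pol II per cell cannot be told apart.

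In the clock of mammalian cells, CLOCK and BMAL1 bind E-box sequences and switch on the Period and cryptochrome genes. The PER and CRY proteins then enter the nucleus together and repress CLOCK and BMAL1, which closes a loop of about a day. In liver this loop times the transcription of many metabolic genes. PER1 and PER2 are the Period proteins needed for the rhythm, and PER3 has a lesser part. CRY1 and CRY2 are the strong repressors of the complex. CIART, also called CHRONO, is a further repressor that binds BMAL1. The DNA elements known to drive these genes include the E-box, the D-box bound by DBP, TEF, HLF and NFIL3, the cAMP response element (CRE) and the element bound by the ROR and REV-ERB receptors.

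The 250 bases before the annotated start show which of these elements lie next to it, and are printed from RefSeq (GRCm38.p6) for the 5 genes with a start in its table. They are the first Per1 start at chr11:69098699-69098948 (plus strand), Per3 at chr4:151044666-151044915, Cry1 at chr10:85185055-85185304, Cry2 at chr2:92434070-92434319 and Ciart at chr3:95882229-95882478 (minus strand for the last 4). Capitals mark the E-box CACGTG, its variant CACGTT (read on the other strand as AACGTG) and the D-box TTATGTAA or TTACGTAA. The search used both strands.
Per1: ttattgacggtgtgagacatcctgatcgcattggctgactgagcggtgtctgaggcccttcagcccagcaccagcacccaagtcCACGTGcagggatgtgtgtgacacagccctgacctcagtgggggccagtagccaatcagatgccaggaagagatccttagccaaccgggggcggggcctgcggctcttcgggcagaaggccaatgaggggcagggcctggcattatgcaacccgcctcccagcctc
Per3: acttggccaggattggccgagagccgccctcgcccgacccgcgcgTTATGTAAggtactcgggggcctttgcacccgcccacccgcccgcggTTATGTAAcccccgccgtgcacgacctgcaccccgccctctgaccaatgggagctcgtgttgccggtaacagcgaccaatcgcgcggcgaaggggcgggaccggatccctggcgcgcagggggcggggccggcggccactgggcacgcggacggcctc
Cry1: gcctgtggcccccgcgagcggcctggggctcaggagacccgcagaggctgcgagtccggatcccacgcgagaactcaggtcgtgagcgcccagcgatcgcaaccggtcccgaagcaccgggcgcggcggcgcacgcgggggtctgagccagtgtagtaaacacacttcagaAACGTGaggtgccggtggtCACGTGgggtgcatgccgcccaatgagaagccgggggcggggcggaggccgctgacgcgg
Cry2: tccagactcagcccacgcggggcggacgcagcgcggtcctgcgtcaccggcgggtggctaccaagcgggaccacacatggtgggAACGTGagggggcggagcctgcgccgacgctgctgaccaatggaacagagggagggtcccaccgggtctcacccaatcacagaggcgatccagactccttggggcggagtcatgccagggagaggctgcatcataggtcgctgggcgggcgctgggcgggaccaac
Ciart: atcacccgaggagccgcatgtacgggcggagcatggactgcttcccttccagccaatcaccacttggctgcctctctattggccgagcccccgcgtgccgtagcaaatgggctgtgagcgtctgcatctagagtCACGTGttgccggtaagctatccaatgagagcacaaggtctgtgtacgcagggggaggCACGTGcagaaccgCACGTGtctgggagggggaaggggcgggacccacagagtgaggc

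Ciart held 3 E-boxes, at -116, -58 and -44 bases from its start, where a position is the first base of the match. Per1 held 1 E-box, at -166, and Cry1 held 1, at -60. An E-box lay in 6.63% of the 21263 windows of this length before the annotated starts. The variant lay in Cry1 at -79 and in Cry2 at -166, and in 3.90% of all windows. Per3 held 2 D-boxes, at -205 and -158, an element found in 0.922% of windows. No window of the 5 held the CRE TGACGTCA (1.92% of windows). The core of the ROR element, AGGTCA, lay in 12.8% of windows and in Per1 at -137, where it is not in capitals. A second annotated Per1 start, at chr11:69100152, had none of these letters in its 250 bases. A match says only that the letters are there.

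Ends were few in these short windows. The Cry1 window held 4, 8 and 3 ends in experiments 1, 2 and 3, the Per3 window 4, 1 and 4, and the Cry2 window 1, 5 and 4. The Ciart window, with 3 E-boxes, held 0, 1 and 1 ends, and the Per1 window 1, 0 and 1.

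Density of PET ends was compared first over whole windows, as ends per base pair divided by the mean over the nuclear genome. Per2, Per1 and Ciart were the members with the highest density in the experiments with EGS, and Cry1 and Per3 lay near the level of an ordinary gene. In experiment 3, Cry2 at 2.70 lay beside Ciart at 2.78. With only PETs between chromosomes, Cry2 there stood at 2.86 and Ciart at 2.08. All 6 members lay above the nuclear mean in all 3 experiments. The same was true of 47.2% of protein-coding genes, whose median density was 1.22, 1.20 and 1.42 in experiments 1, 2 and 3. The member medians were 2.32, 1.42 and 2.74.

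Per1 (chr11:69095108-69109965) had 26, 46 and 34 ends, a relative density of 3.76 (2.45 to 5.50), 2.19 (1.60 to 2.92) and 2.78 (1.93 to 3.89). It stood at the 87.2, 95.2 and 88.3 percentile of protein-coding genes and was the densest member in experiment 2. Per2 (chr1:91415977-91459351) had 89, 80 and 119 ends, a density of 5.28 (4.24 to 6.49), 1.56 (1.24 to 1.95) and 4.00 (3.31 to 4.78). It was the densest member in both experiments with EGS, at the 91.9 and 95.4 percentile, and stood at the 82.5 percentile with formaldehyde alone. That rank rests on PETs within a chromosome: with only PETs between chromosomes, Per2 stood at 3.98 below Per1 at 4.35 in experiment 1, and at 2.89 beside 2.86 for Per1 and for Cry2 in experiment 3. Per3 (chr4:150997018-151044707) had 31, 78 and 42 ends, a density of 1.69 (1.15 to 2.40), 1.40 (1.11 to 1.75) and 1.29 (0.933 to 1.75). In experiment 3 its density was below the gene median.

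Cry1 (chr10:85131700-85185054) had 29, 67 and 58 ends, a density of 1.43 (0.955 to 2.05), 1.09 (0.842 to 1.38) and 1.61 (1.23 to 2.09). In experiment 2 it was below the gene median, and intervals of the first 2 experiments include the nuclear mean. Cry2 (chr2:92403646-92434085) had 19, 54 and 59 ends, a density of 1.54 (0.926 to 2.40), 1.44 (1.08 to 1.88) and 2.70 (2.06 to 3.49). Ciart (chr3:95878500-95882257), the shortest member with a span of 3758 bp, had 9, 13 and 15 ends, a density of 2.95 (1.35 to 5.60), 1.40 (0.748 to 2.40) and 2.78 (1.56 to 4.59). The ends at its start weigh more in so short a window than in those of the long genes.

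**Figure D1:**
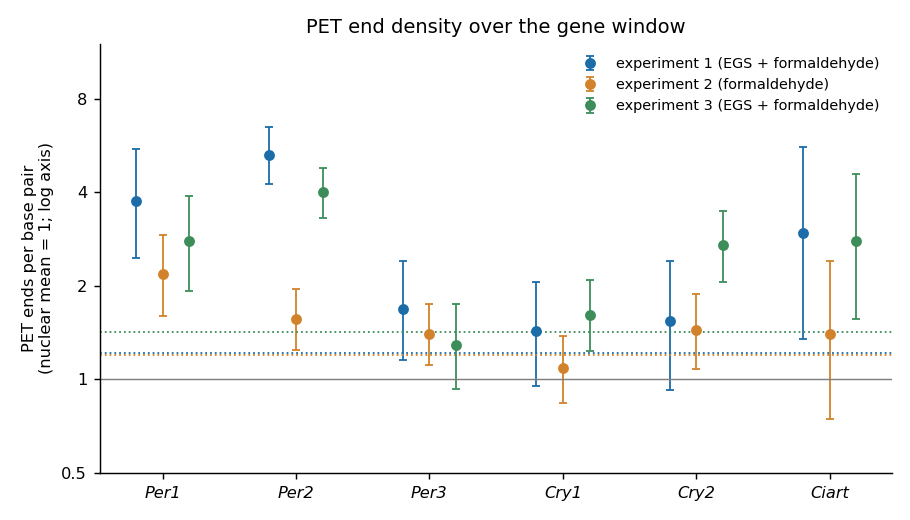
Density of PET ends over the window of each member (vertical axis, nuclear mean = 1, log scale) in the 3 experiments, with 95% Poisson intervals of the counts. Dotted lines give the median of protein-coding genes in the same experiment; Per2 stands at 5.28 and 4.00 in the experiments with EGS and at 1.56 without it.

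The order from high to low was Per2, Per1, Ciart, Per3, Cry2, Cry1 in experiment 1. It was Per1, Per2, Cry2, Per3, Ciart, Cry1 in experiment 2, and Per2, Per1, Ciart, Cry2, Cry1, Per3 in experiment 3. No neighbours in any of these orders had intervals that were apart. Members farther apart in the order did. In experiment 1, Per2 and Per1 each lay above Per3, Cry1 and Cry2. In experiment 2, Per1 lay above Cry1. In experiment 3, Per2 lay above Per3 and Cry1, and Per1 and Cry2 lay above Per3. Over these 6 genes, Spearman's rho was 0.77 for experiments 1 and 2, again 0.77 for 1 and 3, and 0.66 for 2 and 3, given as a description.

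Per2 differed most between experiments. Its density in experiment 1 was 3.37 times that in experiment 2 (2.47 to 4.62), and in experiment 3 it was 2.55 times (1.91 to 3.43), against gene medians of 1.16 and 1.25. Cry2 was 1.88 times as dense in experiment 3 as in experiment 2 (1.27 to 2.77), and 0.569 times as dense in experiment 1 as in experiment 3 (0.320 to 0.968). Both intervals of Cry2 exclude the gene medians of 1.25 and 0.981, but only narrowly. Per1 was 1.71 times as dense in experiment 1 as in experiment 2 (1.02 to 2.83), and Cry1 1.49 times as dense in experiment 3 as in experiment 2 (1.03 to 2.14), and these intervals include the gene medians. All 3 ratios of Per3 and of Ciart had intervals that include 1 and the gene median. With 1 pool crosslinked by formaldehyde alone, these ratios compare pools, not crosslinkers.

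The other genes of the clock were taken from a list of 14 activators, receptors, output factors and further repressors. Of these, 11 lay above the nuclear mean in all 3 experiments, and their medians were 3.30, 1.52 and 2.53. Dbp, a D-box factor, was the highest in experiments 1 and 3 at 43.7 and 8.20, and Bhlhe40, an E-box repressor, in experiment 2 at 5.36. The lowest were Npas2 at 0.970, Nr1d2 at 0.779 and Clock at 0.984. In each experiment the highest member lay below the highest gene of this list, with 5.28 against 43.7, 2.19 against 5.36 and 4.00 against 8.20. Of 10 genes whose products act on PER and CRY proteins, such as kinases and ubiquitin ligases, 9 lay above the mean in all 3 experiments, with medians of 2.37, 1.44 and 1.81. Timeless was the highest in experiment 1 at 6.21, and Ddb1, a ubiquitin ligase adaptor, was the highest in experiments 2 and 3 at 2.10 and 3.55. Casein kinase gene Csnk1e was the lowest in experiments 1 and 2 at 0.940 and 0.886, and the ubiquitin ligase gene Btrc in experiment 3 at 1.13.

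Next, ends within 1 kb of an annotated start were set against the gene body, from 1 kb past the last start to the far end of the span. Any span before the starts is not part of the body. The start-to-body ratio was above 1 in all 3 experiments for Per1, Per3, Cry1, Cry2 and Ciart, though for Per3 in experiment 2 it turned to 0.516 (0.137 to 1.38) with starts taken within 2.5 kb. Its lower limit was above 1 in 5, 3 and 5 of the 5 genes, where 38.1%, 25.5% and 34.8% of 15222 protein-coding genes had such a limit in experiments 1, 2 and 3. Summed over the 5, the ratio was 10.1 (6.61 to 15.4), 3.92 (2.82 to 5.36) and 6.52 (4.69 to 8.98). Summed over all genes it was 6.93, 2.10 and 3.57. The interval of the members lay above the sum of all genes in experiments 2 and 3 and included it in experiment 1. Single ratios ranged from the 41.8 percentile of genes (Per3, experiment 2) to the 98.1 percentile (Ciart, experiment 3). A start excess was not particular to the members. Of 7 genes acting on PER and CRY, 5 had such a limit in each experiment, with median ratios of 8.51, 4.30 and 7.21. Of 12 other clock genes, 6 had it in each experiment, with medians of 3.24, 2.93 and 2.96.

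A PET within 8 kb can count with both ends at a start, so the ratio was also taken over only PETs between chromosomes, an alternative added after the data were seen. It was then 6.87 (3.89 to 11.8), 2.71 (1.77 to 4.05) and 6.94 (4.81 to 9.91) for the 5 members, against 4.89, 1.63 and 3.10 for all genes. Of the 5 members, 3, 2 and 5 kept a lower limit above 1, beside 27.6%, 15.3% and 27.2% of genes. The calls lost were those of Cry1 and Ciart in experiment 1 and of Ciart in experiment 2. With starts taken within 2.5 kb, 4, 2 and 3 members had such a limit, beside 33.5%, 18.9% and 27.5% of 14128 genes.

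Cry1 had 12, 12 and 18 ends within 1 kb of its start in experiments 1, 2 and 3, and 17, 53 and 37 in its body of 52.354 kb. The ratio was 18.5 (8.05 to 41.0), 5.92 (2.88 to 11.2) and 12.7 (6.82 to 22.9), at the 90.9, 91.0 and 97.0 percentile of genes. With only PETs between chromosomes it was 5.23 (0.971 to 18.5), 4.65 (1.89 to 9.97) and 11.4 (5.64 to 22.1), so the call in experiment 1 rested on PETs within the chromosome. The body alone stood at 0.932, 0.958 and 1.15 times the nuclear mean, and the excess of Cry1 lay at its start. Of its 154 ends in all, 26.0% fell in the 1 kb around the start.

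Cry2 had 5, 19 and 16 ends at the start and 12, 33 and 42 in the body. Its ratio was 6.13 (1.69 to 18.7), 8.47 (4.55 to 15.3) and 5.60 (2.94 to 10.2). With only PETs between chromosomes the value of experiment 2 was 3.81 (1.40 to 8.97). In experiment 3 its body also stood at 2.32 times the nuclear mean, the highest body density among the 5 genes, against 1.17 and 1.06 in the others. The window of Cry2 also reaches the neighbour Mapk8ip1, 2.30 kb below its lower boundary.

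Ciart had 7, 9 and 11 ends at the start and 1, 2 and 1 in the body. Its ratio of 9.54 (1.23 to 430), 6.13 (1.27 to 58.3) and 15.0 (2.18 to 645) has wide limits because the body of 2.728 kb held so few ends. BC028528 lies 1.69 kb above Ciart, and its ends cannot be told from those of Ciart within the window.

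Per3 had 9, 4 and 8 ends at the start and 21, 70 and 30 in the body of 46.647 kb. The ratio was 9.99 (4.03 to 22.8), 1.33 (0.353 to 3.57) and 6.22 (2.46 to 13.9). An excess at the Per3 start was therefore seen in both experiments with EGS and was not detectable in experiment 2, whose interval includes 1. Gm38529 lies 0.146 kb above the Per3 span and so within 1 kb of its start. Its ends there cannot be told from those of Per3. Uts2 also reaches the window.

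**Figure D2:**
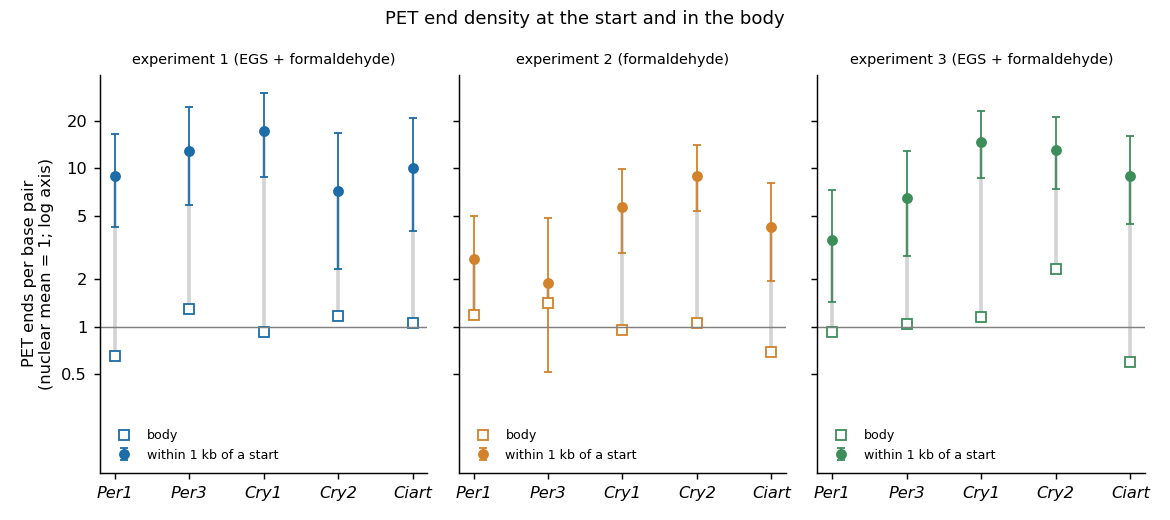
Density of PET ends within 1 kb of an annotated start (filled, with 95% intervals) and in the body (open squares) for the 5 members with an annotated start, 1 panel per experiment, log axis with the nuclear mean at 1. In all panels the start lies above the body; for Per3 in experiment 2 the values are 1.89 and 1.42.

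Per1 has 2 annotated starts, and the ends did not gather at these alone. Within 1 kb of either start it had 10, 9 and 7 ends, and 2, 11 and 5 in the body, a ratio of 13.8 (2.93 to 129), 2.25 (0.824 to 5.97) and 3.85 (1.05 to 15.4). The span from its lower boundary to 1 kb before the first start is in neither part. There, the bins 3 and 2 kb before that start held 1, 8 and 4 ends and 2, 4 and 5 ends. Counting these ends in the body would lower the ratio, whose lower limit in experiment 3 was only 1.05. Within 500 bp the first start held 7, 4 and 6 ends and the second 1, 4 and 1. Another dense 1 kb lay at chr11:69094449-69095448, about 4 kb before the first start and across the lower boundary of the RefSeq span. It held 4, 11 and 6 ends from 20 different PETs, or 19.8% of the 106 ends of the window. The 1 kb at the first start held 7, 4 and 6 ends, so the upstream bin held more than the start bin in experiment 2, fewer in experiment 1 and as many in experiment 3. This bin was picked after its values were seen and has no test. Per1 is on the plus strand, so the lower boundary is the upstream end of its span. Within 1 kb of that boundary lay 4, 18 and 10 ends. Their density was 5.73 (1.56 to 14.7), 8.51 (5.04 to 13.4) and 8.12 (3.89 to 14.9). Within 1 kb of the annotated starts it was 8.95, 2.66 and 3.55. Vamp2, a vesicle fusion gene, lies 2.73 kb below the Per1 span.

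Around the start, the 5 members with an annotated start reached 20.7 (14.5 to 28.6), 7.00 (4.93 to 9.65) and 16.6 (12.3 to 21.8) times the nuclear mean in the central 1 kb. All 17492 genes with an annotated start averaged 10.9, 3.16 and 5.95 there. The peak of the members was thus higher than the average of all genes in each pool. Single bins away from the start also stood above all genes, such as those 10 and 11 kb before it in experiment 1 (5.16 and 6.88) and 11 kb past it in experiment 3 (4.55), all picked after they were seen. Per1 had 11, 7 and 13 ends from 9.5 to 11.5 kb before its start, outside its window, where Vamp2 lies, and Ciart had 7, 2 and 5, where BC028528 lies. Per3, Cry1 and Cry2 had 0 to 2 ends each.

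**Figure D3:**
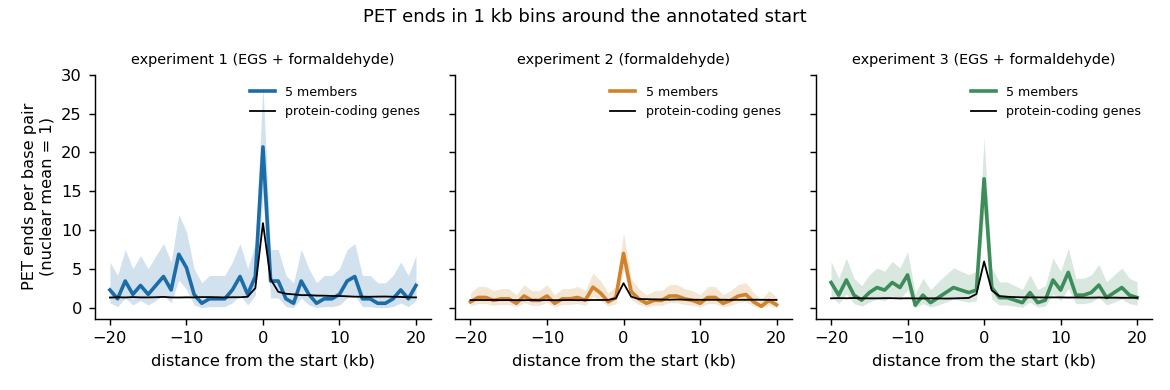
PET ends in 1 kb bins by distance from the annotated start, in the direction of transcription (horizontal axis, kb), as density relative to the nuclear mean, for the 5 members (coloured, shading is the 95% interval) and for the 17492 protein-coding genes with a start (black). The central bin of the members reads 20.7, 7.00 and 16.6, against 10.9, 3.16 and 5.95 for all genes.

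Per2 is not in the table of starts, so its window was read from its upper boundary. Ends within 1 kb of that boundary numbered 20, 10 and 15, a density of 28.7 (17.5 to 44.3), 4.73 (2.27 to 8.69) and 12.2 (6.81 to 20.1). At the lower boundary there were 1, 1 and 2 ends. The first 5 kb inside the upper boundary held 29, 14 and 22 ends, a density of 16.6, 2.65 and 7.15.

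A second dense stretch lay 12 to 17 kb inside Per2, at chr1:91442352-91447351. It held 17, 18 and 24 ends, a density of 9.75 (5.68 to 15.6), 3.41 (2.02 to 5.38) and 7.80 (5.00 to 11.6). The stretch between, from 5 to 12 kb, had 2.87, 0.811 and 3.71. The rest of the gene, from 17 kb to the lower boundary, had 1.85, 1.00 and 2.52. Its intervals lay below those of the 12 to 17 kb stretch in all 3 experiments. PETs between chromosomes alone put 6, 9 and 12 PETs into the 12 to 17 kb stretch, so the pile was not made only of short PETs. These stretches were drawn after the profile was seen and have no test. The lower flank of Per2 held 8, 8 and 7 ends, 6, 8 and 3 of them in the last bin. That bin lies inside Hes6, a gene of the Hairy and Enhancer of split family whose upper end is 1.94 kb below Per2, so these ends of the Per2 window are on Hes6.

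**Figure D4:**
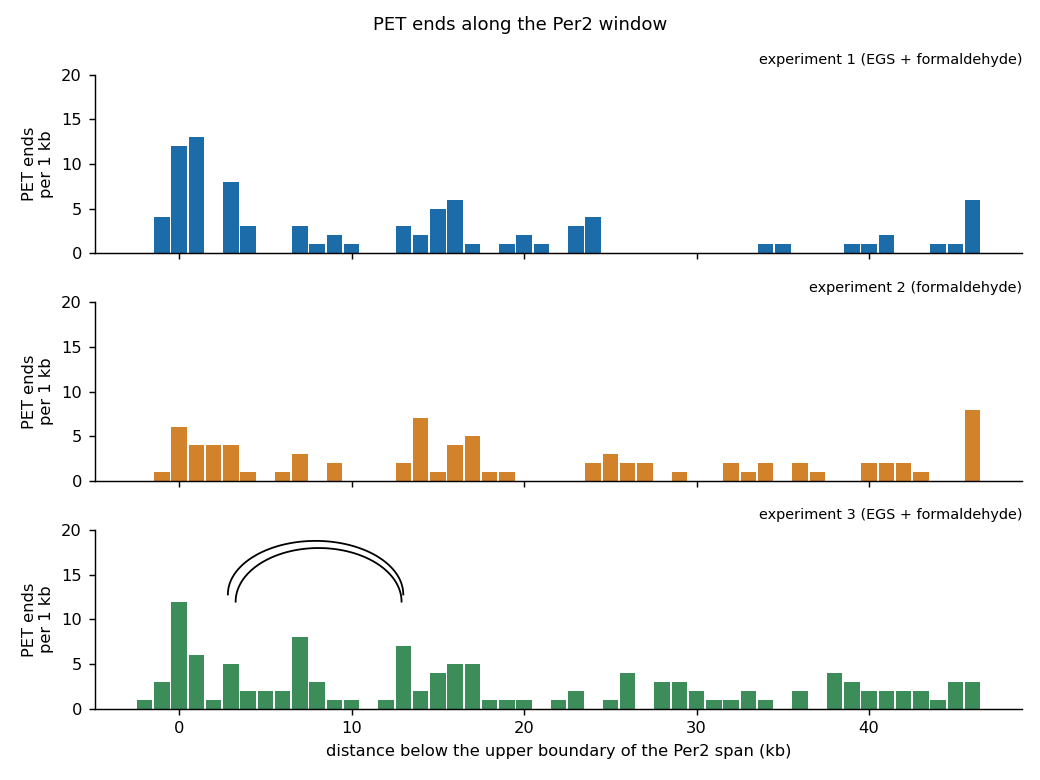
PET ends per 1 kb bin along the Per2 window, by distance below the upper boundary of the gene span (kb), 1 panel per experiment; arcs join the ends of the 2 PETs over 8 kb inside the window and their height has no meaning. Ends gather at the boundary, again 12 to 17 kb inside (17, 18 and 24 ends), and, in experiments 1 and 2, in the last bin, which lies inside Hes6 and is cut short by the window edge.

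In experiment 3, 2 PETs joined these parts of Per2. The first ran from 3.28 to 12.9 kb inside the upper boundary, a distance of 9.64 kb, and the second from 2.83 to 13.0 kb, a distance of 10.2 kb. They carried different linker sequences (ATGT and TAAG), so they are not copies of the same molecule. Experiments 1 and 2 had 0 such PETs with 89 and 80 ends, with upper 95% Poisson limits of 41.4 and 46.1 per 1000 ends. A further PET of 5.47 kb ran from just outside the boundary to 5.01 kb inside it. With 2 PETs from 1 pool, the contact has no replicate.

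PETs with both ends within 8 kb made up 20.5% (14.7 to 27.3) of the 171 member PETs in experiment 1, 10.4% (7.24 to 14.4) of 307 in experiment 2 and 12.5% (8.88 to 16.8) of 289 in experiment 3. Over all gene windows the shares were 16.8%, 4.16% and 9.25%. The interval of the members lay above the share of all windows in experiment 2 and included it in the others. Per2 had 24.7% (15.3 to 36.1), 11.0% (4.85 to 20.5) and 21.6% (13.9 to 31.2), the last of which lay above the share of all windows, as did its share in experiment 2. Cry2 had 17.4% (7.82 to 31.4) in experiment 2, also above it. Per1 had 8.00%, 9.52% and 6.25%, on 2, 4 and 2 PETs, with intervals that include the share of all windows.

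The place of these short PETs was counted for each gene with an annotated start. All 7 of Ciart had at least 1 end within 1 kb of the start, and so did 8 of 13 at Cry1 and 8 of 14 at Cry2. At Per3 it was 2 of 14, and at Per1 2 of 8. These counts are small and do not compare the genes, because the stretch around the start fills more of a short window. The windows ran from 8.758 kb at Ciart to 58.355 kb at Cry1. No share over all genes was taken. The median distance between the ends was 183 bp at Cry1, 194 bp at Per3, 286 bp at Cry2, 332 bp at Ciart, 524 bp at Per2 and 556 bp at Per1. Over all nuclear PETs of this class it was 230, 376 and 230 bp in experiments 1, 2 and 3.

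Longer PETs were looked at for contacts with other DNA. Only 5 PETs of 8 kb to 1 Mb left the 6 windows, and they came from Per1, Per3 and Cry2. At least 1 such PET was seen at 22.3% of protein-coding genes, and here at 3 of 6. Relative to depth this was 5.76 per 1000 ends (1.87 to 13.4), against 2.18 summed over all gene windows, so no difference from other genes was detectable at this depth. Per2, with 288 ends, and Cry1, with 154, had 0, with upper limits of 12.8 and 24.0 per 1000 ends, and Ciart also had 0.

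The Per1 PET ran 23.8 kb, from chr11:69094918 in the dense bin before its first start to chr11:69071086 inside Tmem107, a gene of the ciliary transition zone (experiment 3). Cry2 had 2 PETs in experiment 3, both from its body. They ended 21.9 kb away at chr2:92446858, 5.91 kb from the fucose transporter gene Slc35c1, and 121 kb away at chr2:92547184, where the nearest gene was Chst1 at 52.4 kb. Per3 had 2 PETs in experiment 2, of 349 and 544 kb, and both ended inside Camta1, at chr4:151390310 and chr4:151554019. Their far ends lay in different places, and no far end in this distance class was seen in more than 1 experiment.

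PETs over 8 kb with both ends in the window were seen at Per2, as described, and 1 at Per3, over 8.25 kb within its body in experiment 3. At least 1 of this kind was seen at 4.57% of protein-coding genes and at 2 of the 6 members. Relative to depth, the members had 3 such PETs, or 3.46 per 1000 ends (0.713 to 10.1), against 0.440 summed over all gene windows. The interval lay above that value, on 3 PETs from 1 pool. Long windows can hold more of them, and those of Per2 and Per3 are 48.375 and 52.69 kb long. The comparison was not matched for window length.

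A further 37 PETs joined a member to DNA over 1 Mb away on its chromosome. Their distances ran from 4072 kb at Cry1 to 143822 kb at Per3. Per2 had 16 of them, or 55.6 per 1000 ends (31.8 to 90.2), against 42.6 for the 6 members together. Ends of all PETs over 8 kb within a chromosome made up 4.43%, 5.62% and 6.12% of member ends in experiments 1, 2 and 3. Over all gene windows they made up 4.21%, 5.05% and 5.11%, which the intervals of the members include. Ends on other chromosomes numbered 619, and 49.8% (45.7 to 53.8) of them fell into a gene window, against 49.9% of all ends of such PETs. No PET joined any member to another. Among the listed clock genes, 1 PET joined Cry2 to Rorb (experiment 1) and 1 joined Per3 to Arntl, the gene of BMAL1 (experiment 2). The windows of the 14 clock genes held 5035 ends, and those of Rorb and Arntl are 185.588 and 140.656 kb long. Whether 2 such PETs exceed random ligation was not tested, so they are not read as contacts between clock genes.

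Each experiment can be divided by the 2 linker sequences, ATGT and TAAG. The sources used here do not say how the linkers relate to the libraries, so the subsets are compared only as subsets. In experiment 1 Per2 stood at 5.21 with ATGT and 5.32 with TAAG, in experiment 2 at 2.22 and 1.37, and in experiment 3 at 3.74 and 4.23. The 2 subsets of Per2 lay near each other in experiments 1 and 3 and above the nuclear mean in all 3. Per1 stood at 3.88 and 3.67 in experiment 1, at 3.74 and 1.73 in experiment 2, and at 2.58 and 2.96 in experiment 3. Its 2 intervals in experiment 2 overlap. Cry2 stood at 1.73 and 3.58 in experiment 3, with overlapping intervals of 1.03 to 2.74 and 2.57 to 4.86.

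The limma fit over 19522 genes, with the experiment as a block and 3 subsets on each side, called 0 genes at an adjusted p below 0.05 (0% of those tested), and 978 had an unadjusted p below 0.05. On the log2 scale, with ends scaled to the subset's depth and 1 added, TAAG minus ATGT was -0.31 ± 0.35 (SE) for Per1, -0.16 ± 0.21 for Per2 and -0.19 ± 0.29 for Per3. It was 0.02 ± 0.30 for Cry1, 0.19 ± 0.35 for Cry2 and -0.23 ± 0.55 for Ciart. The adjusted p of limma lay between 0.948 (Per1) and 0.999 (Cry1), and a p of this size does not show that the subsets are alike.

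**Figure D5:**
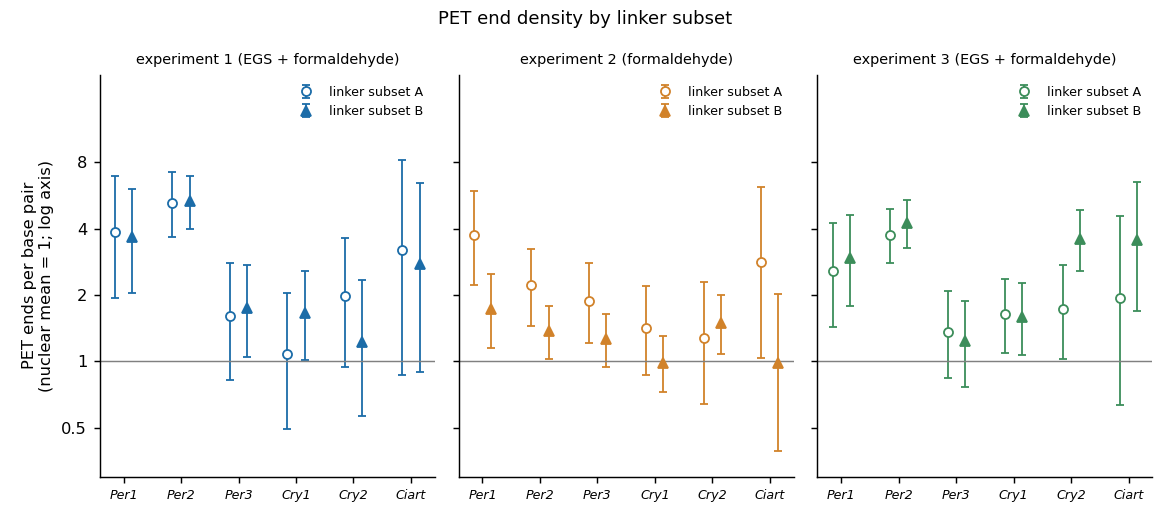
Density of PET ends over the member windows in the linker subsets, A for the linker ATGT (open circles) and B for TAAG (triangles), with 95% intervals, log axis, nuclear mean at 1, 1 panel per experiment. Per2 reads 5.21 and 5.32 in experiment 1, and the widest gap for Per1 is 3.74 against 1.73 in experiment 2.

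Genes most like each member with an annotated start were found among 15222 genes, so Per2 was not compared. The distance was over 6 values, the log2 start density and log2 body density in each experiment. Cry1 was nearest to Setdb2, at a distance of 0.26, with 13, 11 and 17 ends at its start. Per3 was nearest to 6030458C11Rik (0.38) and Per1 to Brip1 (0.39), and Ciart was nearest to Dguok (0.44). Cry2 had the most distant nearest gene, Pgm1, at 0.59. None of these members was among the 3 genes nearest to another of them. With so many genes compared, that outcome was likely in any case and says nothing about the members. The distances also rest on few ends, such as 1, 2 and 1 in the body of Ciart, so the nearest genes are uncertain.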

How the data were processed

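The authors deposited 1 table without a header, with a row for each PET. Judged by the values, the fields used are an experiment number, a linker sequence, and a chromosome and position for both ends. The submitters' processing notes name the build mm10 and Bowtie2; the sources used here do not give other steps. Gene spans, starts and promoter sequences came from RefSeq tables of GRCm38.p6, the same build. All values are counts of ends made from the deposited positions, after setting aside PETs that touch the mitochondrial chromosome. A PET counts with each end that lies in a window, and PETs between ends within a window count there with both, which makes the intervals too narrow.

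Relative density is ends per base pair divided by the nuclear mean, over a genome of 2.72 Gb taken from the highest positions. Intervals are exact Poisson for densities, Clopper-Pearson for shares and conditional binomial for ratios, at 95%. Start and body were compared in 15222 protein-coding genes with starts on 1 strand and a body of at least 1 kb; the design named genes over 2 kb. A limma 3.58.1 fit (R 4.3.3) on log2 ends, scaled to each subset's depth with 1 added, compared linker subsets over genes with at least 10 ends, with Benjamini-Hochberg adjustment, and was tested on simulated data. Other steps used Python 3.11.15, pandas 2.3.3 and scipy 1.17.1. Linker subsets are not stated to be separate cultures or animals, so those p-values measure only the spread between subsets. All members were named by rule, listed genes only as the highest or lowest of a list, the 3 nearest genes by Euclidean distance with 0.1 added before the log2, and neighbours and far ends by position. The members and lists were chosen with earlier results of these data known. Per2 has no entry in the table of starts.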

Additional observations from a re-analysis of the deposited data

How the results depend on the processing

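No paired analysis was possible because the table carries no library and no replicate number; the experiment block of the limma fit pairs linker subsets, not libraries. Of 274 values recomputed under other settings for 50 results, 227 stayed within the interval of the reported value, on the same side of the test, or, for counts, within 1.5 times. Some of these could hardly move. Collapsing PETs removed few of them, and a linker difference counted as unchanged when its sign held and it was still not called. Over the 6 windows together, the relative density of 2.61, 1.43 and 2.38 in experiments 1, 2 and 3 was 2.23 and 1.22 in experiments 1 and 2 with only PETs between chromosomes. It was 3.82, 4.28 and 3.50 with only PETs within 8 kb, and 2.14, 1.20 and 1.68 relative to the median gene. The start-to-body ratio of the 5 genes together was 16.3, 5.59 and 10.4 with starts taken within 0.5 kb. Within 2.5 kb it was 2.08 in experiment 2 and 3.56 in experiment 3, and with only PETs between chromosomes it was 2.71 in experiment 2. The PETs of 8 kb to 1 Mb that left the windows numbered 3 without experiment 2 and 2 without experiment 3, since those experiments held all of them. Among single genes, 26 values moved outside their interval, 12 of them higher with only PETs within 8 kb. Differences between the linker subsets, none of them called, changed sign on leaving out experiment 2 for Per1 (0.06), Per2 (0.10) and Ciart (0.29), experiment 1 for Cry1 (-0.27), and experiment 3 for Cry2 (-0.22), as log2 values. The cause of these shifts was not tested. The limma fit called 0 genes under all 6 alternatives, with 241 to 1176 genes at an unadjusted p below 0.05. Collapsing PETs within 10 bp removed 0.373% of them. Depth limits what can be seen of contacts, with 9 to 119 ends for a member in an experiment.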
